A study of Mus musculus with 71 samples.

Results

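Whole small intestine tissue of Btnl2-KO and WT mice was profiled by bulk RNA-sequencing in 14 of the 71 samples of the study. These 14 are the libraries whose labels give small intestine as the tissue, and they hold 7 Btnl2-KO and 7 WT libraries. The study asked how Btnl2, a butyrophilin-like protein made by intestinal epithelial cells (IECs), acts on γδ intraepithelial lymphocytes (IELs), and it also profiled γδ IELs, IEC fractions and colon tissue. All mice were C57BL/6. The Btnl2-KO group is labelled Btnl2-/- and comes from a line generated in-house, in which a LacZ reporter was placed at the start codon of Btnl2 and a selection cassette under a human ubiquitin promoter came after it. The WT group carried the intact gene. No treatment is named for either group, and mice of both genotypes were housed together. Loss of Btnl2 and presence of the inserted cassettes cannot be told apart in this design. The titles of both groups begin with YNG, which the labels do not spell out, and give no age in weeks. The study's methods name female mice for its experiments except where otherwise indicated. The labels do not give the segment from which a piece was cut, and nothing in them states that each library came from its own mouse, so p-values measure the spread between these libraries. Libraries are called KO 1 to KO 7 and WT 1 to WT 7 in the order of their records, and the numbers pair nothing.

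The small intestine digests and absorbs sugars, peptides and fats through enterocytes, which carry the enzymes and transporters for these nutrients on their brush border. Gene expression in the epithelium changes along the gut. The transcription factor Gata4 marks the duodenum and jejunum, the uptake of bile acids belongs to the ileum, and posterior Hox genes are expressed in the wall further down. Whole tissue also holds smooth muscle, enteric neurons and glia, vessels, fibroblasts and immune cells. Each level below is a sum over all of these, so that fewer cells of a type and less RNA per cell cannot be told apart. Levels are also relative to the rest of a library. A lower level of a cell type therefore cannot be told apart from a larger share of other cells.

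The position of each piece along the gut was read from 50 genes that were higher in duodenal than in ileal IECs of WT mice and 50 that were higher in ileal IECs, on a scale where WT duodenal IECs average 0 and WT ileal IECs average 1. The WT mice of these IECs were 7 weeks old. The study's methods give an older age range for experiments except where otherwise indicated. The labels do not state whether it holds for the tissue. The IECs of the WT jejunum, which did not set the scale, lay between 0.43 and 0.57. The scores of the Btnl2-KO pieces were 0.529 for KO 1, 0.924 for KO 2, 0.872 for KO 3, 0.924 for KO 4, 0.991 for KO 5, 0.961 for KO 6 and 0.966 for KO 7. Those of the WT pieces were 0.950 for WT 1, 0.896 for WT 2, 0.876 for WT 3, 1.005 for WT 4, 0.675 for WT 5, 1.021 for WT 6 and 0.892 for WT 7. Thus 12 of the 14 pieces scored close to ileal IECs, KO 1 scored within the range of jejunal IECs, and WT 5 scored between the jejunum and the ileum. The scale does not order the whole gut, since the 13 colon libraries scored 0.689 to 0.7702, next to WT 5, and it is read here together with regional genes. Mean scores were 0.881 ± 0.160 (SD, n = 7) in the Btnl2-KO and 0.902 ± 0.115 (SD, n = 7) in the WT group, a difference of -0.0209 that was smaller than the spread between libraries (two-sided exact permutation test over samples, p = 0.756). With the short duodenal and ileal lists used below in place of the 100 genes the difference was 0.295 (exact permutation p = 0.0408), and with 20 genes each way it was 0.0459 (exact permutation p = 0.555).

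**Figure D1:**
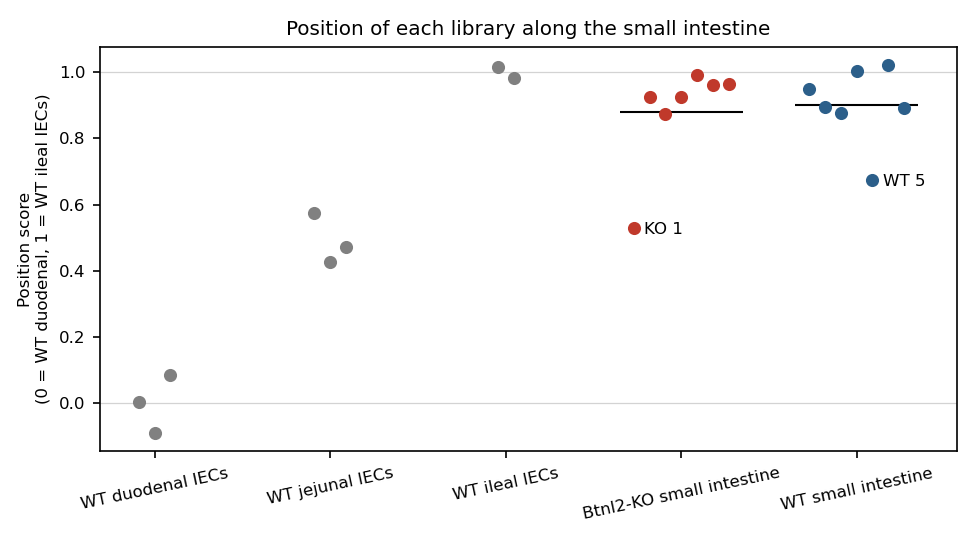
Position score of each library, where 0 is the mean of WT duodenal IECs and 1 the mean of WT ileal IECs. Each point is 1 library and horizontal bars are group means. KO 1 at 0.529 and WT 5 at 0.675 lie below the other 12 tissue libraries, which lie between 0.872 and 1.021.

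Regional genes were read beside the score. Lct, Hoxb9 and Slc10a2 are among the genes of the score and so are not independent of it, while Gata4 is not among them. Gata4 was at 93.1 CPM (counts scaled to library size) in KO 1, 80.3 CPM in WT 5 and 14.4 CPM in WT 7, and at or below 2.29 CPM in the other 11 libraries. Lct, the lactase of the proximal brush border, was at 1983 CPM in KO 1 and 391 CPM in WT 5, and at or below 8.15 CPM elsewhere. Hoxb9 was at 2.08, 1.69 and 8.696 CPM in KO 1, WT 5 and WT 7, and between 51.5 and 70.9 CPM in the other 11. The ileal bile acid transporter Slc10a2 was at 6.005 CPM in KO 1, 6.18 CPM in WT 5 and 13.96 CPM in WT 7, against 75.6 to 383 CPM in the rest. WT 7 therefore had a score close to ileal IECs with several regional genes between the levels of the proximal and the distal pieces.

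Other libraries stood apart in markers of other tissues or cells. Car1, a carbonic anhydrase of the colonic epithelium, was at 834 CPM in WT 2 and 1619 CPM in WT 3, against 591 to 875 CPM in the colon libraries of WT mice, and at or below 0.606 CPM in the other 12. The water channel Aqp8, another colonic gene, was at 11.3 and 27.8 CPM there, far under the 310.3 to 428 CPM of WT colon. WT 4 held more B cell RNA than any other piece, with the B cell membrane protein Ms4a1 at 18.9 CPM against at most 1.59 CPM elsewhere, and a summed B cell list of 257 CPM against 32.5 to 79.9 CPM. KO 3, KO 7, WT 1 and WT 7 shared high levels of tuft cell genes and of genes known from type 2 responses of the epithelium. Dclk1, a tuft cell kinase, was at 134, 75.6, 78.1 and 62.2 CPM in these libraries and between 16.7 and 40.5 CPM in the other 10. The phospholipase Pla2g4c, named after its values were seen, was at 7277, 6639, 5958 and 1329 CPM in these 4 and at most 412 CPM in the others. These genes were thus high in 2 libraries of each genotype.

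**Figure D2:**
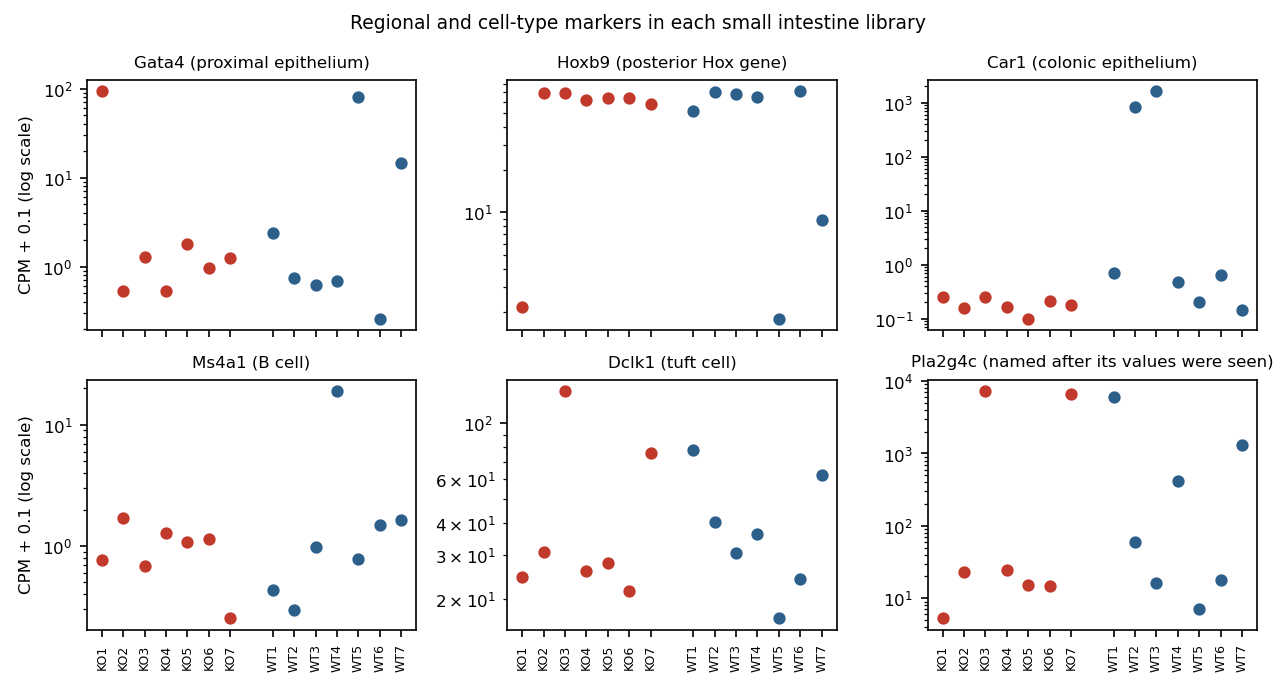
Levels of 6 genes in each library, in CPM plus 0.1 on a log scale, with Btnl2-KO libraries in red and WT libraries in blue. Gata4 is high in KO 1 and WT 5, Car1 in WT 2 and WT 3, Ms4a1 in WT 4, and Dclk1 and Pla2g4c in KO 3, KO 7, WT 1 and WT 7.

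The level of epithelial RNA also differed between pieces. The summed pan-epithelial list, 12 genes such as Epcam and Cdh1, came to 14626 to 19344 CPM (median 17287) in the Btnl2-KO and 9487 to 19075 CPM (median 14737) in the WT libraries, and WT 5, WT 6 and WT 7 were the lowest of all 14. The summed smooth muscle list came to 7652 to 16459.5 CPM (median 9904) in the Btnl2-KO and 9256 to 19687 CPM (median 11476) in the WT libraries, with the highest sums in WT 1, KO 7 and WT 7. Smooth muscle, B cell, Paneth cell and epithelial markers were all present in every library, and the α-defensins, products of Paneth cells in small intestinal crypts, summed to at least 18797 CPM in each, as the label of small intestine requires. Results below are therefore also given without the 5 libraries with Gata4 or Car1 above 10 CPM (KO 1, WT 2, WT 3, WT 5 and WT 7), without the 3 libraries lowest in epithelial RNA, and with the mean of the smooth muscle list as a covariate, where this moved a count by over 1.5 times. These settings were chosen after seeing the data.

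Total counts were 13619314 to 18439059 per Btnl2-KO library and 15840659 to 19359452 per WT library. Of 14866 genes tested with edgeR (quasi-likelihood test, Benjamini-Hochberg FDR below 0.05 and fold change above 1.5), 1 was called lower (0.00673%) and 2 higher (0.0135%) in Btnl2-KO tissue. The lower gene was Btnl2 itself, at 0.661 to 2.37 CPM (median 1.45) in the Btnl2-KO and 22.8 to 99.7 CPM (median 55.9) in the WT libraries, and the groups did not overlap. The higher features were ID807225 and ID807237, identifiers with no name in the reference used here. The genome was customized, and whether they are mouse genes or inserted sequence was not tested. ID807225 ranged from 11.7 to 37.5 CPM (median 22.3) in the Btnl2-KO libraries and from 0 to 0.0535 CPM in the WT libraries. ID807237 ranged from 1.39 to 4.23 CPM (median 2.203) in the Btnl2-KO libraries and was at 0 in every WT library. Both were near or at 0 in the colon of Btnl2-KO mice, with at most 0.205 CPM of ID807225 and 0 CPM of ID807237.

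No other gene passed in this fit. DESeq2, the study's tool, called 0.775% of its genes higher and 0.15% lower, among them Btnl2 and ID807225 but not ID807237, to which it gave no adjusted p, limma-voom 0.256% and 0.0874%, and edgeR fitted together with the colon 1.11% and 0.317%. Low p-values were frequent. An unadjusted p below 0.05 was reached by 1772 genes with higher levels (11.9% of those tested) and 1643 with lower levels (11.1%) in Btnl2-KO tissue. Without the 5 libraries with Gata4 or Car1 above 10 CPM, these shares were 8.91% and 5.23%. They were 4.81% and 5.19% without the 3 libraries lowest in epithelial RNA, and 4.44% and 5.55% with the smooth muscle covariate. They were 7.11% and 6.38% with the pan-epithelial mean as covariate, and 12.6% and 10.3% without KO 3, KO 7, WT 1 and WT 7, the libraries with the epithelial type 2 gene Retnlb above 20 CPM. In the colon of the same genotypes (7 Btnl2-KO and 6 WT libraries) they were 1.44% and 2.7%. All 7 Btnl2-KO libraries lay above all 7 WT libraries for 92 genes (0.619%) and below them for 49 genes (0.33%). In what follows, gene lists are described by how many members reached an unadjusted p below 0.05 in each direction and by their median log2 fold change, to be read against these shares and against a median of -0.03 over all genes tested. Apart from Btnl2 and the unnamed identifiers, no gene named below was called in this fit.

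**Figure D3:**
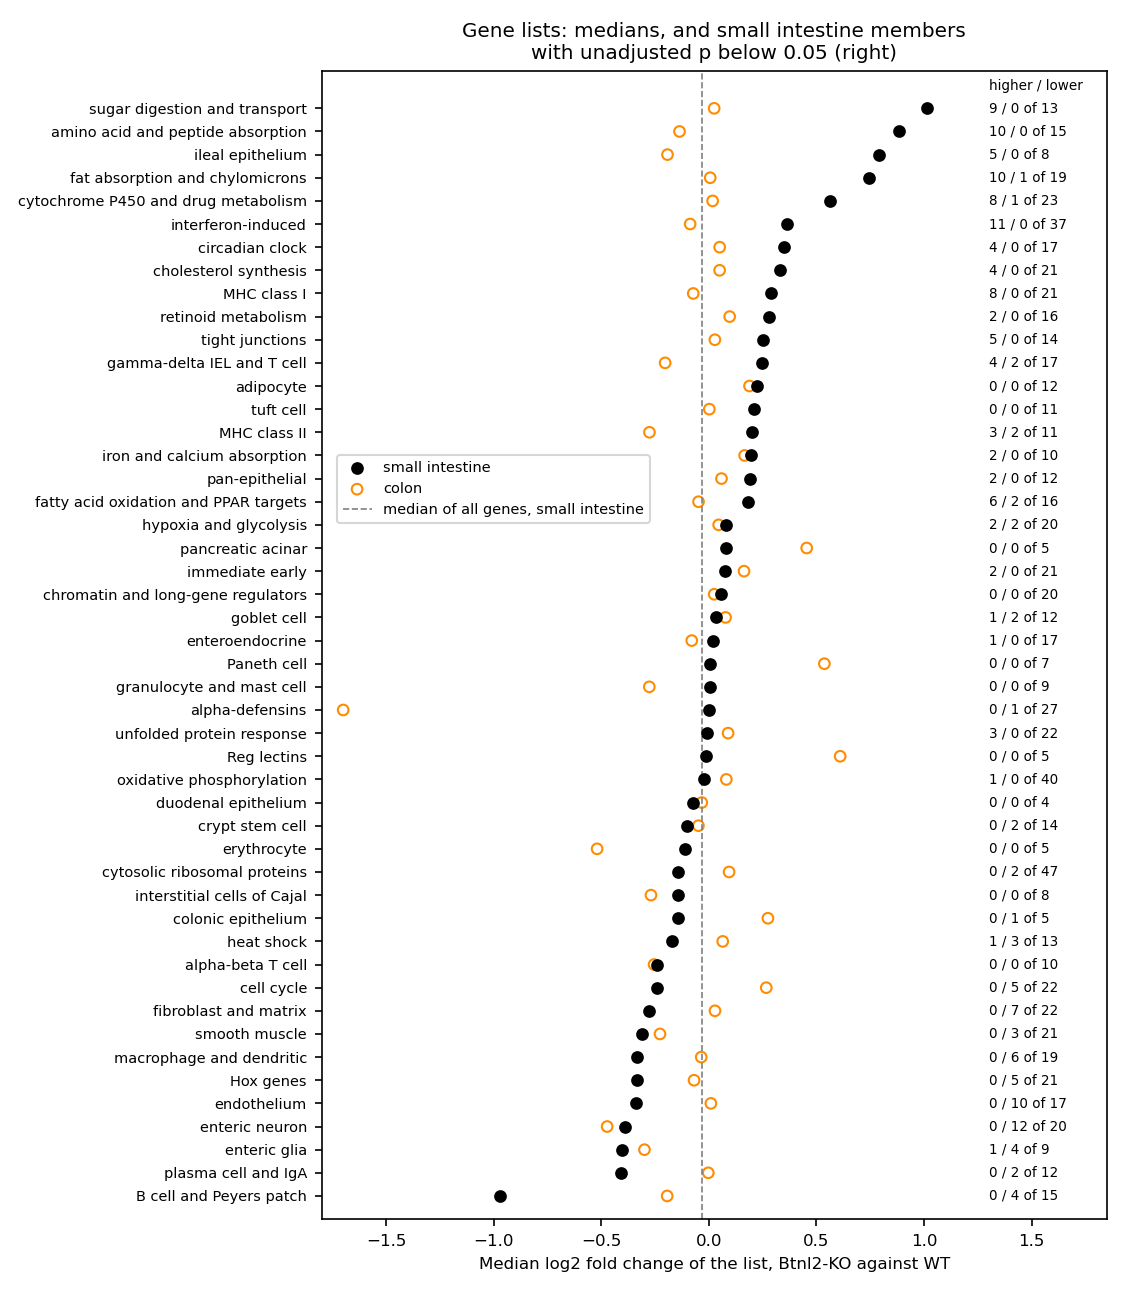
Median log2 fold change (Btnl2-KO against WT) of each gene list in small intestine (black) and colon (orange, open); the dashed line is the median of all genes tested in small intestine. Numbers on the right count members with an unadjusted p below 0.05 in small intestine, higher and lower in Btnl2-KO tissue, of those tested. The sugar, amino acid, ileal and fat absorption lists have the highest medians (0.75 to 1.01), and enteric neuron, glia, plasma cell and B cell lists the lowest (-0.39 to -0.97).

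Genes of sugar digestion had the highest median among the lists. All 13 members tested had log2 fold changes above 0, with a median of 1.01, and 9 of them reached an unadjusted p below 0.05 in the higher direction and none in the lower. Sis, the sucrase-isomaltase of the brush border (chromosome 3, 72888557 to 72967863, GRCm38), was at 1489 to 2322 CPM (median 1602) in the Btnl2-KO and 368 to 1116 CPM (median 864) in the WT libraries. The groups did not overlap, and the log2 fold change was 1.22 (SE 0.24, unadjusted p = 0.000108, FDR 0.0942). The other α-glucosidase of the brush border, Mgam, was at 871 to 2307 CPM (median 1840.0) in the Btnl2-KO and 746 to 1337 CPM (median 979) in the WT libraries, and KO 3 and KO 7 lay within the WT range while the other 5 lay above it (log2 fold change 0.76, unadjusted p = 0.00325). Treh, which splits trehalose, was at 41.8 to 177 CPM (median 74.9) in the Btnl2-KO and 4.51 to 48.8 CPM (median 34.5) in the WT libraries. Here KO 7 lay below WT 1 and WT 3, and WT 6 and WT 7 were far below all others (log2 fold change 1.49, unadjusted p = 0.00692). The glucose transporter Slc5a1 and the fructose transporter Slc2a5 had log2 fold changes of 0.80 (unadjusted p = 0.0122) and 1.04 (unadjusted p = 0.0139), and Khk, the first enzyme of fructose breakdown, of 0.82 (unadjusted p = 0.0105). Lct, high in KO 1 and WT 5 alone, had an unadjusted p of 0.285, and the glucose transporter Slc2a2 was at 0.536 to 55.5 CPM (median 1.097) in the Btnl2-KO and 0.0535 to 22.1 CPM (median 0.376) in the WT libraries (unadjusted p = 0.305).

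Proteases and transporters for peptides and amino acids also had mostly higher values. Of 15 members tested, 10 reached an unadjusted p below 0.05 with higher and 0 with lower levels in Btnl2-KO tissue, and the median log2 fold change was 0.88. Dpp4, a dipeptidyl peptidase of the brush border, was at 726 to 1140.1 CPM (median 838) in the Btnl2-KO and 122 to 608 CPM (median 532) in the WT libraries. The groups did not overlap (log2 fold change 0.98, SE 0.30, unadjusted p = 0.00479, FDR 0.121). Enpep, the aminopeptidase that removes acidic residues, was at 1327 to 2222 CPM (median 1667) in the Btnl2-KO and 281 to 1404 CPM (median 915) in the WT libraries, and only KO 7 lay within the WT range (log2 fold change 0.88, unadjusted p = 0.00661). The proline transporter Slc6a20a was at 102 to 166 CPM (median 143) in the Btnl2-KO and 31.7 to 129 CPM (median 73.3) in the WT libraries, and KO 5, KO 6 and KO 7 lay below WT 2 (log2 fold change 0.89, unadjusted p = 0.00362). For the neutral amino acid transporter Slc6a19 the log2 fold change was 1.32 (unadjusted p = 0.0378), and for the peptide transporter Slc15a1 it was 1.05 (unadjusted p = 0.0492). The summed list came to 3803 CPM in WT 6 and 1895 CPM in WT 7, against 8939.6 to 11649.9 CPM in the other WT and 10719.8 to 17146 CPM in the Btnl2-KO libraries. WT 6 and WT 7 were thus below every other library.

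**Figure D4:**
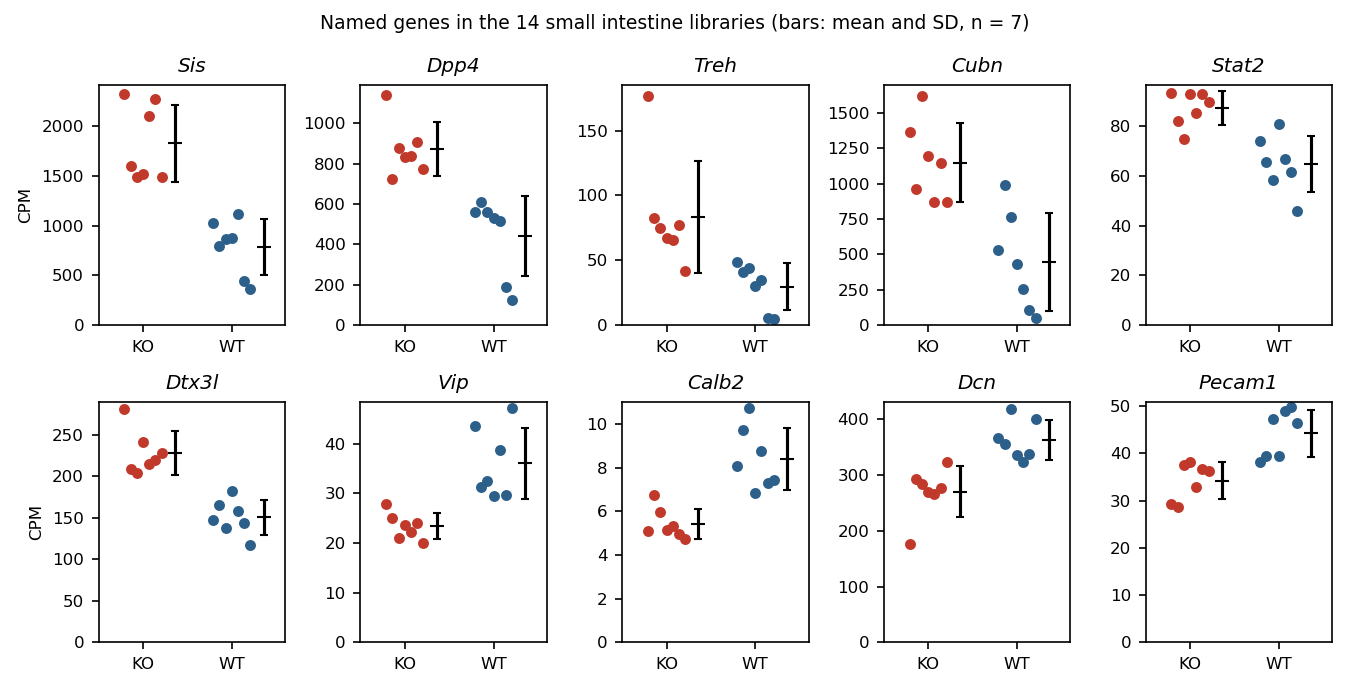
Levels in CPM of 10 named genes in the 7 Btnl2-KO (red) and 7 WT (blue) libraries, with the mean and SD of each group in black. The groups do not overlap for Sis, Dpp4, Dtx3l, Vip, Calb2, Dcn and Pecam1, and they overlap for Treh, Cubn and Stat2.

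Genes of fat absorption had 10 of 19 members tested with an unadjusted p below 0.05 in the higher direction and 1 in the lower (median log2 fold change 0.75). Apob, the structural protein of chylomicrons, was at 2202 to 6027 CPM (median 2607) in the Btnl2-KO and 308 to 2323 CPM (median 1359) in the WT libraries, with KO 1 the highest of all and KO 5 and KO 7 below WT 1 (log2 fold change 1.16, unadjusted p = 0.0105). Npc1l1, the cholesterol importer, was at 601 to 1863 CPM (median 842) in the Btnl2-KO and 132 to 665 CPM (median 549) in the WT libraries, and only KO 7 lay within the WT range (log2 fold change 1.07, unadjusted p = 0.0101). Mttp, which loads lipid onto Apob, and the acyltransferase Mogat2 had log2 fold changes of 0.88 (unadjusted p = 0.0191) and 0.65 (unadjusted p = 0.0259). The member in the lower direction was the lipoprotein receptor Scarb1, at 6.75 to 12.3 CPM (median 9.97) in the Btnl2-KO and 9.73 to 13.9 CPM (median 12.6) in the WT libraries (log2 fold change -0.33, unadjusted p = 0.0239). The summed list was 28415 CPM in the proximal piece KO 1 against at most 11956 CPM in the other Btnl2-KO libraries.

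The counts for these 3 nutrient lists changed with the libraries and covariates used. Without WT 5, WT 6 and WT 7, the libraries lowest in epithelial RNA, 11 of 13 sugar genes, 8 of 15 amino acid genes and 4 of 19 fat genes reached an unadjusted p below 0.05 in the higher direction (4.81% of all genes did), and the medians were 0.80, 0.50 and 0.54. With the smooth muscle covariate the counts were 1, 4 and 0 (4.44% of all genes), with medians of 0.43, 0.56 and 0.45. Without the 5 libraries with Gata4 or Car1 above 10 CPM they were 9, 8 and 5 (8.91% of all genes). Sis itself had log2 fold changes of 1.04 (unadjusted p = 4.75e-05), 1.01 (unadjusted p = 0.00122) and 1.16 (unadjusted p = 0.0019) in these settings. In the colon, which uses few of these genes, 0 of 8 sugar genes, 0 of 15 amino acid genes and 1 of 14 fat genes reached an unadjusted p below 0.05 in the higher direction (1.44% of all genes).

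Uptake genes of the ileum had 5 of 8 members with an unadjusted p below 0.05 in the higher direction and 0 in the lower (median log2 fold change 0.79). Cubn, the cubilin receptor for vitamin B12 with its intrinsic factor, was at 871 to 1623 CPM (median 1145) in the Btnl2-KO and 47.2 to 994 CPM (median 431) in the WT libraries, and only WT 2 entered the Btnl2-KO range (log2 fold change 1.36, unadjusted p = 0.0145). Its partner Amn was at 45.4 to 112 CPM (median 72.4) in the Btnl2-KO and 19.6 to 62.6 CPM (median 45.8) in the WT libraries, where KO 3 and KO 7 lay within the WT range (log2 fold change 0.84, unadjusted p = 0.00571). Fgf15, the hormone by which the ileum reports bile acid load to the liver, was at 51.7 to 181 CPM (median 122) in the Btnl2-KO and 3.37 to 142 CPM (median 28.2) in the WT libraries. Only WT 1, at 142 CPM, entered the Btnl2-KO range (log2 fold change 1.51, unadjusted p = 0.0209). The bile acid exporters Slc51a and Slc51b had log2 fold changes of 0.67 (unadjusted p = 0.0238) and 0.63 (unadjusted p = 0.0498). The bile acid binder Fabp6 ranged from 419.7 CPM in KO 1 to 3846 CPM in KO 6 and from 102 CPM in WT 5 to 2697 CPM in WT 1 (log2 fold change 0.74, unadjusted p = 0.173). Fabp6 was lowest in the 2 pieces with the lowest position scores, and it is itself among the genes of that score. Without the 3 libraries lowest in epithelial RNA, 2 of 8 members reached an unadjusted p below 0.05, and with the smooth muscle covariate 1 did. The shares of all genes higher were 4.81% and 4.44% in these settings.

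Other lists of the epithelium had smaller shares of members with higher levels. These are to be read against 11.9% of all genes higher and 11.1% lower. Counts of 2 in lists of 10 to 16 members are near these shares. For drug metabolism, 8 of 23 members had an unadjusted p below 0.05 in the higher direction and 1 in the lower, with a median log2 fold change of 0.56 that went to -0.20 with the smooth muscle covariate. Abcc2, an exporter of conjugated compounds, was at 30.4 to 267 CPM (median 66.8) in the Btnl2-KO and 10.9 to 47.6 CPM (median 30.4) in the WT libraries, and KO 1 held the highest level while KO 7 lay among the WT libraries (log2 fold change 1.58, unadjusted p = 0.0029). For fatty acid oxidation and PPAR targets, 6 of 16 were higher and 2 lower at an unadjusted p below 0.05. Ehhadh, an enzyme of peroxisomal oxidation, was at 63.9 to 109 CPM (median 77.96) in the Btnl2-KO and 45.9 to 74.7 CPM (median 48.9) in the WT libraries (log2 fold change 0.49, unadjusted p = 0.00379). For cholesterol synthesis all 21 members had log2 fold changes above 0 (median 0.33) and 4 reached an unadjusted p below 0.05, among them the desaturase Sc5d (log2 fold change 0.50, unadjusted p = 0.00299). For iron and calcium absorption 2 of 10 did, the iron importer Slc11a2 (log2 fold change 0.50, unadjusted p = 0.00133) and the ferroxidase Heph (log2 fold change 0.78, unadjusted p = 0.00627). For retinoid metabolism 2 of 16 did, and for tight junctions 5 of 14. Vil1, the villin of microvilli, was at 1730.1 to 3586 CPM (median 2286) in the Btnl2-KO and 662 to 1936 CPM (median 1606) in the WT libraries (log2 fold change 0.76, unadjusted p = 0.00529), and 2 of the 12 pan-epithelial genes reached an unadjusted p below 0.05.

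Interferon-induced genes had 11 of 37 members with an unadjusted p below 0.05 in the higher direction and 0 in the lower (median log2 fold change 0.36). These genes are switched on by a factor complex that holds Stat2 and Irf9 and binds the interferon-stimulated response element (ISRE). Stat2 itself was at 74.9 to 93.6 CPM (median 90.02) in the Btnl2-KO and 46.2 to 80.9 CPM (median 65.5) in the WT libraries, with 6 of 7 Btnl2-KO libraries above every WT library (log2 fold change 0.43, SE 0.10, unadjusted p = 0.000839, FDR 0.113). Ifih1, a sensor of double-stranded RNA, was at 93.9 to 153 CPM (median 124) in the Btnl2-KO and 52.6 to 109 CPM (median 79.6) in the WT libraries (log2 fold change 0.61, unadjusted p = 0.000931). Ifit1, which blocks translation of viral RNA, was at 17.6 to 78.8 CPM (median 54.7) in the Btnl2-KO and 9.87 to 35.1 CPM (median 28.3) in the WT libraries, and KO 3 and KO 7 were the lowest of the Btnl2-KO libraries (log2 fold change 0.98, unadjusted p = 0.00631). Oas3, which activates RNase L, was at 25.4 to 95.2 CPM (median 38.3) in the Btnl2-KO and 5.55 to 30.9 CPM (median 24.4) in the WT libraries, highest in KO 1 and lowest in WT 7 (log2 fold change 1.09, unadjusted p = 0.00666). Dtx3l, a ubiquitin ligase that is known to be induced by interferon, was not on the list and is named by its p-value among all genes. It was at 204 to 281 CPM (median 219.9) in the Btnl2-KO and 117 to 182 CPM (median 148) in the WT libraries, and the groups did not overlap (log2 fold change 0.60, SE 0.10, unadjusted p = 2.58e-05, FDR 0.0942).

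The promoters of 3 of these genes are shown because they hold an ISRE-type motif, GAAA followed by any 2 bases and GAAA again, here searched on both strands within the 250 bases before the start site of RefSeq transcripts (GRCm38.p6). Capitals mark the match, which reads as given or, where it lies on the other strand, as TTTC, 2 bases and TTTC.
Ifit1, chr19:34640774-34640873, plus strand: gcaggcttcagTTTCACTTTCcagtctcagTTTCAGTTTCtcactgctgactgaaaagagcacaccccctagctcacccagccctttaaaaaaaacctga
Oas3, chr5:120777665-120777764, minus strand: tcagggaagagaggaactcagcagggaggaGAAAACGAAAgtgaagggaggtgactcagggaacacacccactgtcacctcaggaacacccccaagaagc
Stat2, chr10:128270248-128270347, plus strand: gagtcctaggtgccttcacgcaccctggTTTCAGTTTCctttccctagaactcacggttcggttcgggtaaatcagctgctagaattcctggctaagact
The motif was found in 17 of the 27 promoters of the interferon-induced list that had an entry (63.0%), in 3 of 18 promoters of the MHC class I list (16.7%) and in 821 of 27025 promoters in all (3.04%). For Ifih1 these letters were not in the window. The list had been assembled from genes known to respond to interferon, and a match is a description of sequence.

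MHC class I genes had 8 of 21 members with an unadjusted p below 0.05 in the higher direction and 0 in the lower (median 0.29). H2-T23, a nonclassical class I gene, was at 185 to 309 CPM (median 252) in the Btnl2-KO and 119.6 to 208 CPM (median 183) in the WT libraries (log2 fold change 0.49, unadjusted p = 0.00274). H2-Q1 and H2-Q2 had log2 fold changes of 1.01 and 0.99, but genes of this cluster are near-identical copies and reads may be split between them, so these values are uncertain. For MHC class II, 3 of 11 members were higher and 2 lower at an unadjusted p below 0.05. The higher ones included the transactivator Ciita (log2 fold change 0.45, unadjusted p = 0.0374), and the lower ones were H2-DMb2 and the B cell gene H2-Ob (log2 fold change -1.11, unadjusted p = 0.0406), whose highest level of 21.3 CPM was in WT 4. The study places Btnl2 close to the H2 locus. What part the targeting of Btnl2 there had in the levels of H2 genes was not tested. Without the 5 libraries with Gata4 or Car1 above 10 CPM, 5 of 37 interferon-induced genes were higher and 1 lower (median 0.12), and 3 of 21 class I genes were higher. Over all genes, 8.91% were higher and 5.23% lower in that setting. With the smooth muscle covariate 4 and 2 were higher (4.44% of all genes). The summed interferon list was 1235 CPM in KO 3, 1489.6 CPM in KO 7, 1948 to 2633 CPM in the other 5 Btnl2-KO libraries and 1113 to 1692 CPM in the WT libraries, so that KO 3 and KO 7 lay within the WT range and the others above it. In the colon 0 of 37 interferon-induced genes were higher and 1 lower (1.44% and 2.7% of all genes).

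Ly75, an endocytic receptor best known from dendritic cells, was at 48.7 to 89.4 CPM (median 51.97) in the Btnl2-KO and 18.8 to 38.9 CPM (median 28.6) in the WT libraries. The groups did not overlap (log2 fold change 0.98, SE 0.17, unadjusted p = 3.96e-05, FDR 0.0942). Aldh1l1, a folate enzyme, was at 126 to 155 CPM (median 141) in the Btnl2-KO and 65.7 to 121 CPM (median 90.7) in the WT libraries, without overlap (log2 fold change 0.62, SE 0.12, unadjusted p = 8.61e-05, FDR 0.0942). Further genes with a fold change above 1.5 and no overlap were Fgd4, which activates the GTPase Cdc42, at 74.4 to 102 CPM (median 84.2) in the Btnl2-KO and 36.9 to 71.9 CPM (median 48.3) in the WT libraries (log2 fold change 0.66, unadjusted p = 0.000114), and Clic5, an intracellular channel protein of microvilli, at 330.0 to 588 CPM (median 443) in the Btnl2-KO and 109.8 to 306 CPM (median 286) in the WT libraries (log2 fold change 0.90, unadjusted p = 0.000602). These 4 genes had p-values above 0.05 in the colon, where their log2 fold changes were 0.12, 0.06, 0.01 and 0.02. Vegfa, the vascular growth factor, was at 69.7 to 127 CPM (median 98.3) in the Btnl2-KO and 22.99 to 81.9 CPM (median 57.03) in the WT libraries, with KO 3 and KO 7 below WT 2 (log2 fold change 0.87, unadjusted p = 0.00232).

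Among lymphocytes, the list of γδ IEL and other T cell genes had 4 of 17 members with higher and 2 with lower levels at an unadjusted p below 0.05 (median log2 fold change 0.25), and the summed list was lowest in KO 3. Cd8a was at 8.37 to 30.6 CPM (median 22.3) in the Btnl2-KO and 7.52 to 17.95 CPM (median 11.99) in the WT libraries (log2 fold change 0.70, unadjusted p = 0.0147). Gzma, a granzyme of these cells, was at 20.3 to 79.6 CPM (median 60.1) in the Btnl2-KO and 25.4 to 57.6 CPM (median 29.5) in the WT libraries (log2 fold change 0.66, unadjusted p = 0.0212). For both genes KO 3 was the lowest Btnl2-KO library. The lower members were the signalling adaptors Fcer1g (log2 fold change -0.49, unadjusted p = 0.0159) and Tyrobp (log2 fold change -0.38, unadjusted p = 0.0256), which myeloid cells also express. There were 0 higher and 2 lower members without the 5 libraries with Gata4 or Car1 above 10 CPM (8.91% and 5.23% of all genes). None of the 10 αβ T cell genes reached an unadjusted p below 0.05 (median -0.24). The receptor constant-region genes Trgc1, Trgc2, Trgc4, Trac, Trbc1 and Trbc2 were written on these lists but had no values. The lists therefore cannot tell γδ from αβ T cells.

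Genes of the enteric nervous system had lower values in Btnl2-KO tissue. Of 20 enteric neuron genes tested, 0 were higher and 12 lower at an unadjusted p below 0.05 (11.1% of all genes), with a median log2 fold change of -0.39. Vip, a relaxing neuropeptide of motor and secretory neurons (chromosome 10, 5639193 to 5647617, GRCm38), was at 19.98 to 27.8 CPM (median 23.6) in the Btnl2-KO and 29.4 to 47.1 CPM (median 32.5) in the WT libraries. The groups did not overlap (log2 fold change -0.62, SE 0.12, unadjusted p = 8.93e-05, FDR 0.0942). Npy, another neuropeptide, was at 0.636 to 1.48 CPM (median 0.8698) in the Btnl2-KO and 1.02 to 2.96 CPM (median 1.77) in the WT libraries, at low levels that overlapped (log2 fold change -0.91, unadjusted p = 0.00425). Elavl4, an RNA-binding protein that marks neuronal cell bodies, was at 3.36 to 6.42 CPM (median 5.41) in the Btnl2-KO and 4.46 to 9.45 CPM (median 7.18) in the WT libraries, with overlap (log2 fold change -0.46, unadjusted p = 0.0121). The neuronal ubiquitin hydrolase Uchl1 and the neuronal tubulin Tubb3 had log2 fold changes of -0.43 (unadjusted p = 0.0216) and -0.45 (unadjusted p = 0.0266). Calb2, the calretinin of a subset of enteric neurons, was not on the list and is named by its p-value among all genes. It was at 4.75 to 6.75 CPM (median 5.12) in the Btnl2-KO and 6.83 to 10.7 CPM (median 8.08) in the WT libraries, the groups did not overlap, and the log2 fold change was -0.63 (unadjusted p = 8.5e-05, FDR 0.0942). The summed neuron list came to 150.2 to 221 CPM (median 166) in the Btnl2-KO and 175 to 274 CPM (median 217) in the WT libraries, and WT 7, WT 1 and KO 7, which were also high in smooth muscle RNA, had the highest sums. The groups overlapped in this sum.

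The colon libraries gave values on the same side of 0. All 19 neuron genes tested in both tissues had log2 fold changes below 0 in the colon and 18 of the 19 in the small intestine. In the colon 13 of them reached an unadjusted p below 0.05 (2.7% of all genes), with a median of -0.47, and 9 did so in both tissues. Whether colon and small intestine pieces came from the same mice is not given, so that these need not be independent. Muscle genes also lay below 0. For smooth muscle 21 of 21 genes did so in the colon and 20 of 21 in the small intestine. For interstitial cells of Cajal these were 7 of 7 and 5 of 7. Their colon medians were -0.23 and -0.27, against 0.01 over all genes tested in both tissues. At an unadjusted p below 0.05, 0 and 1 of their genes were lower there. Whether the neuron genes were lower in the colon apart from muscle was not tested. Vip was at 9.98 to 27.5 CPM (median 14.8) in the Btnl2-KO and 19.4 to 30.8 CPM (median 26.2) in the WT colon (log2 fold change -0.48, unadjusted p = 0.0333). Prph, the intermediate filament peripherin, was at 4.17 to 8.501 CPM (median 5.68) in the Btnl2-KO and 8.63 to 11.6 CPM (median 9.59) in the WT colon, without overlap (log2 fold change -0.77, unadjusted p = 0.00026, FDR 0.386). Gap43, a growth cone protein, and Penk, the enkephalin precursor, had log2 fold changes of -0.58 (unadjusted p = 0.000627) and -0.59 (unadjusted p = 0.00114) there. For Calb2 the colon levels were 4.24 to 8.501 CPM (median 5.71) in the Btnl2-KO and 7.07 to 10.9 CPM (median 8.68) in the WT colon (log2 fold change -0.59, unadjusted p = 0.00184). For 0 of the 19 was the unadjusted p below 0.05 in the test of a different genotype effect between tissues.

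**Figure D5:**
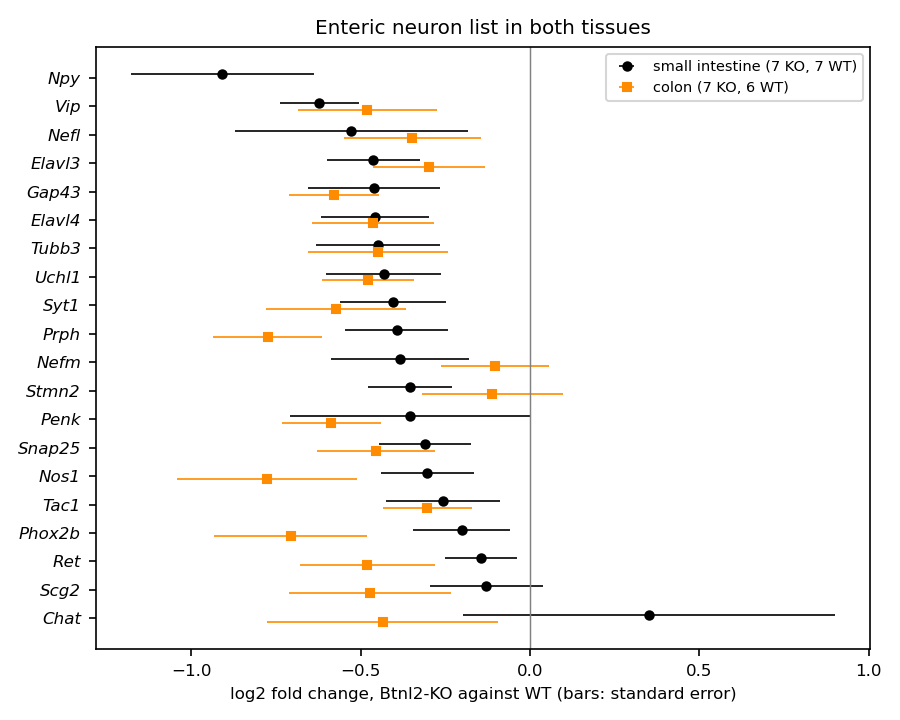
Log2 fold changes of the enteric neuron list in small intestine (black, 7 Btnl2-KO against 7 WT libraries) and colon (orange, 7 against 6), with bars of 1 standard error. In small intestine 19 of 20 genes lie below 0 and Chat lies above it; Npy was not tested in colon.

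Enteric glia genes had 1 of 9 members higher and 4 lower at an unadjusted p below 0.05 (median -0.40). Gpr37l1, a receptor that marks these glia, was at 1.97 to 3.51 CPM (median 2.79) in the Btnl2-KO and 2.59 to 4.56 CPM (median 4.12) in the WT libraries (log2 fold change -0.52, unadjusted p = 0.0101). The higher member was Erbb3, which the epithelium also expresses, at 209 to 355 CPM (median 315) in the Btnl2-KO and 118 to 370.3 CPM (median 163) in the WT libraries (log2 fold change 0.52, unadjusted p = 0.0455). In the colon 0 of 9 were higher and 4 lower, with a median of -0.30. Without the 5 libraries with Gata4 or Car1 above 10 CPM, 3 neuron genes (5.23% of all genes) and 0 glia genes were lower at an unadjusted p below 0.05 in the small intestine, with medians of -0.27 and -0.23, and Vip had a log2 fold change of -0.59 (unadjusted p = 0.00137). With the smooth muscle covariate 3 neuron genes (5.55% of all genes) and 2 glia genes were lower, and without the 3 libraries lowest in epithelial RNA 9 and 3 were (5.19% of all genes).

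Vessels and connective tissue leaned the same way in the small intestine, where the share of epithelial RNA had the higher median in the Btnl2-KO libraries. Of 17 endothelial genes, 0 were higher and 10 lower at an unadjusted p below 0.05 (median -0.34). Pecam1, the adhesion molecule of endothelial junctions, was at 28.7 to 38.1 CPM (median 36.2) in the Btnl2-KO and 38.3 to 49.9 CPM (median 46.5) in the WT libraries, and the groups did not overlap by a narrow margin (log2 fold change -0.37, SE 0.09, unadjusted p = 0.000853, FDR 0.113). Ccl21a, a chemokine of lymphatic vessels, was at 22.5 to 40.8 CPM (median 31.4) in the Btnl2-KO and 36.6 to 51.7 CPM (median 43.9) in the WT libraries, where only KO 7 entered the WT range (log2 fold change -0.51, unadjusted p = 0.000519). Ccl21a belongs to a family of near-identical copies, and its reads may be shared with them. Lyve1, a hyaluronan receptor of lymphatic vessels, was at 17.8 to 22.4 CPM (median 20.3) in the Btnl2-KO and 19.5 to 32.3 CPM (median 26.2) in the WT libraries (log2 fold change -0.37, unadjusted p = 0.00256). In the colon 0 of these 17 genes were higher and 1 lower (median 0.01), and 7 of them reached an unadjusted p below 0.05 when the genotype effects of the tissues were compared. Of the 17, 2 were lower without the 5 libraries with Gata4 or Car1 above 10 CPM (median -0.16), and 3 were without the 3 libraries lowest in epithelial RNA (median -0.18). The shares of all genes lower were 5.23% and 5.19% in these settings.

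The fibroblast and matrix list had 0 of 22 members higher and 7 lower at an unadjusted p below 0.05 (median -0.28). Dcn, the proteoglycan decorin, was at 176 to 324 CPM (median 277) in the Btnl2-KO and 324 to 419 CPM (median 356) in the WT libraries, with KO 7 next to WT 5 at the boundary between groups that did not overlap (log2 fold change -0.43, SE 0.12, unadjusted p = 0.00222, FDR 0.113). Igfbp5, a binding protein of insulin-like growth factors made by stromal and muscle cells, was at 94.5 to 126 CPM (median 109.9) in the Btnl2-KO and 117 to 211 CPM (median 181) in the WT libraries. Only WT 1 entered the Btnl2-KO range (log2 fold change -0.63, SE 0.12, unadjusted p = 7.58e-05, FDR 0.0942). Sorbs3, the adhesion protein vinexin, was at 6.23 to 9.72 CPM (median 9.12) in the Btnl2-KO and 11.4 to 18.2 CPM (median 12.3) in the WT libraries, without overlap (log2 fold change -0.65, SE 0.13, unadjusted p = 0.000121, FDR 0.095). The smooth muscle list had 0 of 21 members higher and 3 lower (median -0.31), and Myh11, the smooth muscle myosin, was at 1223 to 2458 CPM (median 1486) in the Btnl2-KO and 1480.1 to 2433 CPM (median 1887) in the WT libraries (log2 fold change -0.30, unadjusted p = 0.0975). None of the 8 genes of the interstitial cells of Cajal reached an unadjusted p below 0.05 (median -0.14).

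Macrophage and dendritic cell genes had 0 of 19 members higher and 6 lower at an unadjusted p below 0.05 (median -0.33). C1qc, a complement component made by resident macrophages, was at 21.9 to 39.9 CPM (median 33.1) in the Btnl2-KO and 28.6 to 76.2 CPM (median 47.6) in the WT libraries, and WT 6 was the highest library (log2 fold change -0.54, unadjusted p = 0.0109). Its partners C1qa and C1qb had log2 fold changes of -0.46 and -0.45, and Cd68 of -0.57 (unadjusted p = 0.00623). Without the 3 libraries lowest in epithelial RNA 1 of 19 was lower (5.19% of all genes). B cell genes had 4 of 15 members lower with a median of -0.97, but this rested on WT 4. Without that library the median was 0.09. Plasma cell genes had 2 of 12 lower (median -0.41).

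Lists of the secretory lineages had few members with low p-values. Of 7 Paneth cell genes other than α-defensins, none reached an unadjusted p below 0.05 (median 0.0048), and of 27 α-defensins 1 did, in the lower direction (median 0.00051). These defensins are near-identical copies and were read as a sum, which came to 30434 to 48021 CPM (median 33154) in the Btnl2-KO and 18797 to 59269.6 CPM (median 27713) in the WT libraries. Goblet cell genes had 1 of 12 higher and 2 lower. The higher was Fcgbp, a mucus protein (log2 fold change 0.60, unadjusted p = 0.0256), and the lower were Agr2, a disulfide isomerase for mucins (log2 fold change -0.42, unadjusted p = 0.00955), and Ccl9. Tuft cell genes had 0 of 11 (median 0.21) with a summed list of 305 to 1281 CPM in the Btnl2-KO and 314 to 1039 CPM in the WT libraries, and enteroendocrine genes had 1 of 17. Crypt stem cell genes had 0 of 14 higher and 2 lower (median -0.10). All 22 cell cycle genes had log2 fold changes below 0 (median -0.24) and 5 reached an unadjusted p below 0.05, among them the mitotic kinase Cdk1 at 22.7 to 35.3 CPM (median 26.2) in the Btnl2-KO and 27.5 to 49.4 CPM (median 36.5) in the WT libraries (log2 fold change -0.38, unadjusted p = 0.013). Without the 3 libraries lowest in epithelial RNA the cell cycle median was -0.02 and 0 genes reached it. In the colon all 22 had log2 fold changes above 0, and 11 of them reached an unadjusted p below 0.05 when the genotype effects of the tissues were compared.

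Programs of RNA handling, energy and stress are to be read against 11.9% and 11.1% of all genes. Oxidative phosphorylation genes had 1 of 40 members higher and 0 lower (median -0.02), cytosolic ribosomal protein genes 0 of 47 higher and 2 lower (median -0.14), and chromatin and long-gene regulators 0 of 20 (median 0.06). Hypoxia and glycolysis genes had 2 of 20 higher and 2 lower, unfolded protein response genes 3 of 22 higher and 0 lower, heat shock genes 1 of 13 higher and 3 lower, and immediate early genes 2 of 21 higher and 0 lower. The summed immediate early list was 752 to 1187 CPM in WT 4 to WT 7, 1716 to 2383 CPM in WT 1 to WT 3 and 1542 to 2227 CPM in the Btnl2-KO libraries. WT 4 to WT 7 were thus below every other library, and 3 of these 4 were also the lowest in epithelial RNA. The part of this in the differences above was not tested. Circadian clock genes had 4 of 17 higher and 0 lower (median 0.35), and among them Tef, an output transcription factor of the clock, was at 18.1 to 44.9 CPM (median 28.4) in the Btnl2-KO and 14.1 to 24.9 CPM (median 17.3) in the WT libraries (log2 fold change 0.58, unadjusted p = 0.01). With the smooth muscle or the pan-epithelial covariate and without the 3 libraries lowest in epithelial RNA the clock median was 0.13, 0.15 and 0.10. The time of day at which pieces were taken is not in the labels. Hox genes had 0 of 21 higher and 5 lower (median -0.33), and without the 5 libraries with Gata4 or Car1 above 10 CPM 0 of them reached an unadjusted p below 0.05 (median -0.10). Markers of neighbouring tissue, namely pancreatic acinar cells, adipocytes and erythrocytes, had 0 of 5, 0 of 12 and 0 of 5 members with an unadjusted p below 0.05. Granulocyte and mast cell genes had 0 of 9, Reg lectins 0 of 5 and duodenal genes 0 of 4, and colonic genes had 0 of 5 higher and 1 lower.

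A direct test of whether the genotype effect differed between small intestine and colon was made over 27 libraries and 15540 genes. Of these, 1 gene was called with a higher (0.00644%) and 2 with a lower effect (0.0129%) in the small intestine. Btnl1, a butyrophilin-like relative of Btnl2 that selects γδ IELs, was at 118 to 253 CPM (median 148) in the Btnl2-KO and 57.7 to 166 CPM (median 125) in the WT libraries in small intestine and at 1.24 to 5.89 CPM (median 1.99) in the Btnl2-KO and 15.7 to 43.6 CPM (median 25.4) in the WT colon. It was thus lower in Btnl2-KO colon without overlap, while the small intestine groups overlapped (log2 fold changes -3.14 and 0.39, difference 3.52, FDR 5.07e-05). The study places Btnl1 at the same locus as Btnl2, and what part this had was not tested. Igf2bp3, an RNA-binding protein of fetal tissues, was at 9.98 to 14.4 CPM (median 12.02) in the Btnl2-KO and 11.2 to 53.8 CPM (median 14.9) in the WT libraries in small intestine and at 29.003 to 86.8 CPM (median 31.6) in the Btnl2-KO and 9.497 to 14.5 CPM (median 11.7) in the WT colon (difference -2.61, FDR 0.00908). The small intestine values of Igf2bp3 were highest in WT 5 and WT 1. The noncoding gene 4930463O16Rik was at 0.367 to 1.28 CPM (median 0.987) in the Btnl2-KO and 0.914 to 4.65 CPM (median 1.24) in the WT libraries in small intestine and at 7.36 to 30.5 CPM (median 11.1) in the Btnl2-KO and 0.607 to 1.24 CPM (median 0.829) in the WT colon (difference -5.02, FDR 1.06e-05). None of the genes of the absorptive, neuronal or vascular lists passed this test.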

How the data were processed

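RNA of 14 small intestine tissue libraries (7 Btnl2-KO, 7 WT) was analysed, with 13 colon tissue libraries for comparison and WT IEC libraries of the duodenum (3), jejunum (3) and ileum (2) for the position scale. The deposited values are expected counts, made by the authors with RSEM from sense-strand exon reads, after alignment in ArrayStudio against a customized genome of the mouse. The labels' processing notes name GRCm38. Of the tissue values 17.2% were not whole, and all were rounded. Of 24475 identifiers 100 carried no name. The kit is given differently in the labels and in the study's methods.

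edgeR 4.0.16 (R 4.3.3) was used with TMM, at least 10 counts in at least 7 libraries and its quasi-likelihood test on genotype alone, and Benjamini-Hochberg FDR below 0.05 with a fold change above 1.5 made a call. Unadjusted p-values come from the same fit. Alternatives were DESeq2 1.42.0 (the study's tool), limma-voom (limma 3.58.1), other filters and size factors, covariates, and leaving out libraries. The code was tested on simulated data. CPM are TMM-scaled. No pair of libraries of a group agreed within counting noise.

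Members and lists were chosen with earlier results of these data known. Named genes were the called ones, up to 10 per direction with the lowest p, a fold change above 1.5 and a mean of at least 5 CPM, up to 4 per list with the lowest p, the members of the duodenal and ileal lists, and genes past the test between tissues. Other genes, such as Slc2a2, Mogat2, Scarb1, Erbb3, Penk, Gap43, Myh11 and those marking libraries that stood apart, were named after their values were seen. Promoters were taken from RefSeq (GRCm38.p6). Some genes are not reported here.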

Additional observations from a re-analysis of the deposited data

Results flagged for a closer look

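Of 98 groups of 7 values tested, 16 held 1 library far from the others of its genotype by Dixon's test, where chance gives about 1 in 20. KO 1, the piece with the lowest position score (0.529), was also apart in the summed CPM of ileal genes (2448), Hox genes (77.8), fat absorption genes (28415), fatty acid oxidation and PPAR targets (2082), cholesterol synthesis genes (1787) and chromatin regulators (3211). KO 7 was the highest Btnl2-KO library in Paneth cell genes (13673 CPM), α-defensins (48021 CPM) and smooth muscle genes (16459.5 CPM), and KO 3 the lowest in MHC class II genes (2334 CPM). Among WT libraries, WT 5 had the lowest position score (0.675), WT 4 the highest sums of Reg lectins (12983 CPM) and B cell genes (257 CPM), and WT 1 the highest sums of hypoxia and glycolysis genes (6257 CPM) and oxidative phosphorylation genes (10967 CPM).

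The genotype effect differed between small intestine and colon for Btnl1 (difference of log2 fold changes 3.52), Igf2bp3 (-2.61) and 4930463O16Rik (-5.02) in the edgeR test of that difference.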

How the results depend on the processing

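DESeq2 called 155 genes higher and 30 lower, limma-voom with quality weights 38 and 13, and a joint edgeR fit that included the colon 171 and 49, against 2 and 1. Of 145 genes followed across settings, these newly called 39, 11 and 39. The 145 were taken only from genes picked for naming. They were those called, those with an unadjusted p below 0.05, and those picked from the test between tissues or the fit with the position covariate. Without unnamed identifiers 0 genes were called higher. Leaving out 1 library gave 2 to 5 higher and 1 to 3 lower calls (5 and 2 without WT 4, 3 and 3 without WT 1, 4 and 1 without WT 2, 2 and 2 without KO 5). In the test between tissues, 8 genes were lower with no count minimum, and 8 were higher with DESeq2 and 2 without the libraries with Gata4 or Car1 above 10 CPM. The position difference turned positive with 20 genes each way (0.0459) and with the short lists (0.295), and ranged from -0.0587 to 0.0378 when 1 library was left out (0.0378 without KO 1).

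List medians moved by less than the spread between libraries in 1075 cases and by more in 29. The spread was the SD of a list's mean log2 level within the genotypes, which was wide for some lists. For sugar genes it was 0.81 in the Btnl2-KO and 0.78 in the WT libraries. The fall of the sugar median with the smooth muscle covariate, given above, was within it. A move within this spread therefore does not show that a list was stable. Without the libraries with Gata4 or Car1 above 10 CPM, medians were -0.38 for Reg lectins, 0.28 for enteroendocrine, -1.67 for B cell, -0.30 for granulocyte, -0.00047 for Cajal cell, -0.23 for glia and -0.16 for endothelial genes. With the smooth muscle covariate they were 0.69 for acinar, -0.20 for drug metabolism, 1.09 for tuft cell, 0.38 for granulocyte, 0.091 for smooth muscle, -0.22 for glia and 0.13 for clock genes. With the pan-epithelial covariate they were 0.42 for acinar, -0.51 for Reg and 0.15 for clock genes. Without the 3 libraries lowest in epithelial RNA they were 0.55 for acinar, -0.29 for Reg, 0.12 for crypt stem cell, -0.18 for endothelial and 0.10 for clock genes. With the position covariate the duodenal median was -0.32, and -0.37 without KO 1, the only library over 0.25 from the median position. Leaving out 1 library gave medians from -0.37 to 0.0046 for duodenal, -0.13 to 0.42 for acinar, -0.23 to 0.40 for Reg and -1.10 to 0.087 for B cell genes (0.42 without WT 1 and 0.40 without WT 7 for acinar, 0.40 and 0.087 without WT 4 for Reg and B cell genes). Ms4a1, a B cell gene, turned to a log2 fold change of 0.079 with DESeq2 and ranged from -2.12 to 0.088 when 1 library was left out (0.088 without WT 4). Beyond these constructions the cause was not tested. The settings on marker genes, muscle and epithelium and the lists without single libraries were chosen after seeing the data. No paired analysis was possible because the labels number the libraries without shared replicate numbers. Levels below 1 CPM rest on few counts at this depth.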

Other observations

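Genes with near-identical copies had levels far apart between libraries. Amd1, an enzyme of polyamine synthesis, was at 0.578 to 0.842 CPM in 6 Btnl2-KO libraries, 0.892 CPM in WT 2, 20.2 CPM in KO 5 and 21.01 to 46.6 CPM in the other 6 WT libraries, while its copy Amd2 was at 58.2 to 89.2 CPM (median 70.8) in the Btnl2-KO and 41.8 to 73.8 CPM (median 63.5) in the WT libraries. Tdg, a DNA repair glycosylase, was at 2.06 to 11.5 CPM in KO 1 and KO 3 to KO 7, 2.91 and 5.95 CPM in WT 3 and WT 2, 56.99 CPM in KO 2 and 58.5 to 69.1 CPM in the other 5 WT libraries. Its pseudogene Tdg-ps2 was at 52.4 to 68.1 CPM in the libraries where Tdg was below 56.99 CPM and at most 7.46 CPM in the others. These genes were named after their values were seen, and whether reads were split between copies was not tested.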
